A study of Mus musculus with 8 samples.

Results

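Semaphorins, plexins, neuropilins, ephrins and Eph receptors were described in 8 RNA libraries of ASZ001, a cell line from basal cell carcinoma of the mouse. The members were chosen by a rule on gene symbols that uses no values, although earlier results of these data were known. They were semaphorins of classes 3 to 7, plexins A to D, both neuropilins, EphA and EphB receptors and ephrins A and B. The rule found 53 genes among the 24907 symbols of the table, namely 20 semaphorins, 9 plexins, 2 neuropilins, 14 Eph receptors and 8 ephrins. All groups were ASZ001 cells and differed in the shRNA they had received and in treatment, with 2 libraries each. The groups were TGFbR1kd cells (shRNA against Tgfbr1, which encodes a TGF-beta receptor kinase) under Dox and 4OHT, labelled TGFbR1kd_RasV12, and NS cells (non-silencing shRNA) under Dox and 4OHT, labelled RasV12. The others were TGFbR1kd cells under DMSO and NS cells under DMSO. NS cells under DMSO carry the genotype label control. RasV12 is an activated form of Ras. Dox and 4OHT commonly abbreviate doxycycline and 4-hydroxytamoxifen. No library received these drugs without the RasV12 label, so drug and RasV12 effects cannot be told apart, and "Ras-induced" and "Ras response" below stand for both together. The sources used here do not give doses, times, whether the line is 1 clone, or whether cells under DMSO carried the RasV12 construct.

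Semaphorins are guidance ligands first known from growing axons. Class 3 members are secreted and bind neuropilins, which have no enzymatic activity of their own and hand the signal to plexins. Most other semaphorins are membrane proteins that bind plexins directly, and plexins act on small GTPases and the actin cytoskeleton. Eph receptors are receptor tyrosine kinases whose ligands, the ephrins, sit on the neighbouring cell. Ephrin-A proteins are held by a lipid anchor and mostly bind EphA receptors, and ephrin-B proteins span the membrane and mostly bind EphB receptors. In epithelia, the skin included, both systems are known for roles in cell contact, migration and the sorting of cells into compartments.

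Tgfbr1, the targeted gene, stood at 8.86 and 9.42 CPM in Ras-induced knockdown libraries, against 104 and 91.6 CPM in Ras-induced NS libraries. Under DMSO it stood at 10.2 and 8.08 CPM in knockdown libraries and 77.1 and 80.4 CPM in NS libraries, so all 8 libraries matched their shRNA labels. CPM are counts scaled to library size with TMM factors. Library totals ranged from 12724325.5 to 16233011 counts, and the ribosomal RNA gene Rn45s took 0.388% to 2.76% of them. All 6 keratinocyte markers examined (Krt5, Krt14, Trp63, Cdh1, Epcam and Dsp) passed the filter on low counts, and their summed level was 12895 to 13188 CPM in Ras-induced knockdown and 12688 to 12865 CPM in Ras-induced NS cells. It was 16213 to 16966 CPM in knockdown and 24580.3 to 24934 CPM in NS cells under DMSO. Of the markers of other cell types, those that passed were Map2 of 8 for neurons and Schwann cells, Pecam1 and Tek of 6 for endothelium, Csf1r of 6 for immune cells, Pdgfra and Dcn of 6 for fibroblasts and Pmel of 5 for melanocytes. The summed neuron and Schwann list, nearly all of it Map2, was at 113 to 114 CPM in Ras-induced knockdown and 139 to 142 CPM in Ras-induced NS cells, and at 108 to 111 CPM in knockdown and 108 to 114 CPM in NS cells under DMSO. The endothelial list summed to 35.3 to 35.5 CPM in Ras-induced knockdown and 22.9 to 24.8 CPM in Ras-induced NS cells, and to 29.8 to 30.8 CPM in knockdown and 37.3 to 38.3 CPM in NS cells under DMSO. Immune, fibroblast and melanocyte lists summed to at most 6.22 CPM in any library. The immune list was at 2.22 to 3.17 CPM in Ras-induced knockdown and 0.11 to 0.116 CPM in Ras-induced NS cells. The fibroblast list went the other way, with 1.14 to 1.91 CPM and 3.47 to 4.39 CPM. Of the markers that did not pass, Rbfox3, Snap25, Tie1, Emcn, Cd3e, Col3a1, Lum, Tyr and Dct had no counts. The rest were at no more than 0.653 CPM in any library. The part of other cell types in the results was not tested. In these bulk libraries, fewer cells with a transcript and less of it per cell cannot be told apart.

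Of the 53 genes, 39 passed the filter and were tested. The other 14 had at most 28.5 counts over all 8 libraries, and 7 of them had none: the receptor genes Epha3, Epha5, Epha10, Ephb1 and Plxnb3 and the semaphorin genes Sema5b and Sema6d. Epha6, Epha8, Ephb2, Plxna4 and Plxnc1 had 0.5 to 3.5 counts. Sema7a, a lipid-anchored semaphorin and the only gene of class 7, had 1.5 counts over the 2 Ras-induced knockdown libraries and 2 counts over the 2 Ras-induced NS libraries. Under DMSO it had 8.5 counts in knockdown and 2 counts in NS cells, which is 4.69 times as many per mapped read, with a 95% interval from counting of 0.881 to 42.7. Sema3g had 2 counts in knockdown and 17.5 counts in NS cells under DMSO, and 5 and 4 counts with Ras induced. Under DMSO that is 7.93 times as many per mapped read in NS cells, with a 95% interval from counting of 1.95 to 72.5. A count of 0 over a group allows a level of up to 0.0995 to 0.113 CPM, depending on the group.

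Per length, the most abundant members in NS cells under DMSO were a plexin, a secreted semaphorin and a transmembrane ephrin. Plxnb2, a receptor of class 4 semaphorins, was at 119.5 ± 2.87 RPKM (CPM per kilobase of transcript, mean ± SD, n = 2) and Sema3c at 112 ± 2.72 RPKM. Efnb2 followed at 77.8 ± 3.50 RPKM and Plxna1, a partner of the neuropilins, at 73.6 ± 3.78 RPKM, which do not differ beyond their spread. Ephb4, the receptor of the Efnb2 protein, was at 56.8 ± 0.660 RPKM, Ephb3 at 54.3 ± 0.567 RPKM and Efnb1 at 52.7 ± 1.5 RPKM. Nrp2 at 38.3 ± 0.441 RPKM and Sema3f, whose protein is a ligand of Nrp2, at 37.9 ± 1.27 RPKM were within each other's spread. The most abundant EphA receptor was Epha2 at 29.5 ± 1.24 RPKM. At the other end of the tested genes, Sema6b was at 0.0203 ± 0.0287 RPKM and Sema4g at 0.0549 ± 0.0161 RPKM. Lengths were those deposited with the counts, 1 for each gene, and a cell that uses another isoform would have another RPKM.

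**Figure D1:**
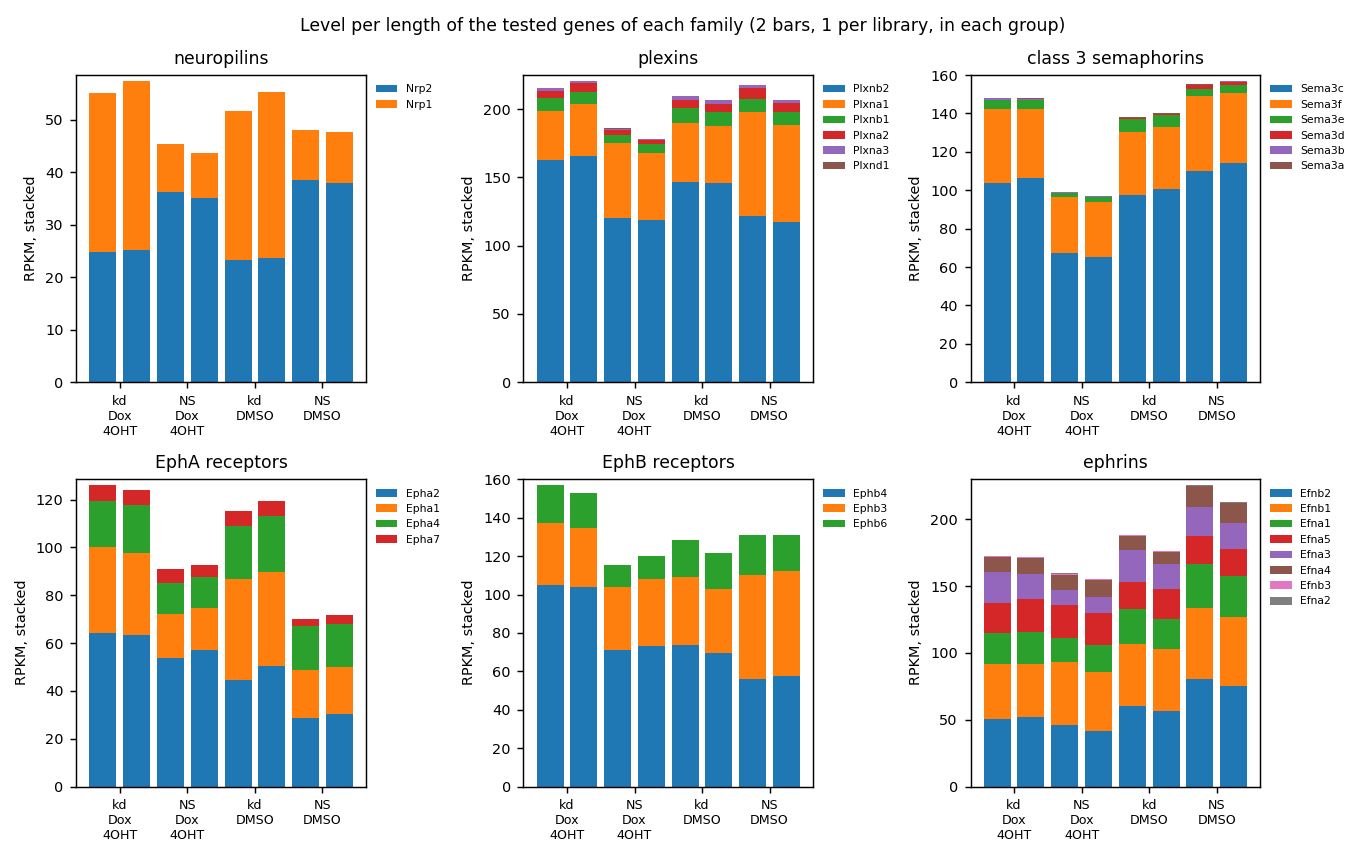
Stacked level per length (RPKM, vertical axis) of the tested genes of 6 families in each of the 8 libraries, with the 2 libraries of a group as neighbouring bars and kd standing for Tgfbr1 knockdown. Nrp1 made up 54.9% to 57.1% of neuropilin RPKM in knockdown libraries, whereas Nrp2 made up 79.7% to 80.6% in NS libraries.

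The knockdown was examined first, as TGFbR1kd against NS cells under each treatment. The labels name no second shRNA against Tgfbr1, so its loss cannot be told apart from other differences between these cells. The clearest pattern was in the neuropilins. Nrp1, which binds class 3 semaphorins and VEGF, was at 178 and 190.4 CPM in Ras-induced knockdown cells and at 54.3 and 49.9 CPM in Ras-induced NS cells. Its level under DMSO was 168 and 186 CPM in knockdown cells and 55.9 and 57.1 CPM in NS cells. All 4 knockdown libraries lay above all 4 NS libraries, and the log2 change was 1.82 ± 0.06 (SE, adjusted p = 5.29e-19) with Ras induced and 1.65 ± 0.05 (adjusted p = 1.93e-18) under DMSO. Nrp2, the other neuropilin, went the opposite way, with 167 and 169 CPM in Ras-induced knockdown and 243 and 236 CPM in Ras-induced NS cells. Its level was 156 and 159 CPM in knockdown and 259 and 255 CPM in NS cells under DMSO. Nrp2 changed by -0.51 ± 0.04 with Ras induced (adjusted p = 3.55e-12) and by -0.71 ± 0.04 under DMSO (adjusted p = 3.12e-15). The ratio of Nrp1 to Nrp2, per length, was 1.22 to 1.33 in the 4 knockdown libraries and 0.24 to 0.255 in the 4 NS libraries. The order of the 2 neuropilins by level was thus reversed between knockdown and NS cells under both treatments, while their summed level was 56.2 ± 1.74 and 44.5 ± 1.23 RPKM in knockdown and NS cells with Ras induced and 53.4 ± 2.36 and 47.9 ± 0.300 RPKM under DMSO.

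Among the 39 tested members, 30 passed an adjusted p of 0.05 with Ras induced, 24 higher and 6 lower in knockdown cells. Of all 12538 genes tested 60.2% passed in that comparison, 30.5% higher and 29.7% lower. Under DMSO 30 members passed as well, 14 higher and 16 lower, where 61.9% of all genes passed, 30.9% higher and 31.0% lower. The median log2 change of the tested members was 0.38 with Ras induced and 0.04 under DMSO, and that of all genes was -0.01 and 0.00. In both comparisons 13 members were higher and 6 lower, and 6 were higher with Ras induced but lower under DMSO, namely Sema3c, Sema3f, Sema6c, Plxna2, Efna1 and Efnb2. Shared and opposite calls were not counted over all genes, so these numbers have no background to be read against. Of the opposite calls, those of Sema6c, Plxna2 (under DMSO) and Efna1 (with Ras induced) ended when single libraries were left out, as given below for each. At least a 2-fold change past the test was found in 6 members with Ras induced and in 7 under DMSO, against 10.3% and 10.7% of all genes. The 2 knockdown comparisons share no library.

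Sema3d and Sema4f had the largest falls with the knockdown among members with at least 5 CPM in either group, and Nrp1 the largest rise. The 250 bases before the RefSeq start of these 3 genes (build GRCm38.p6, 5′ to 3′ on the gene's strand) are shown to put these opposite changes beside the sequence upstream of each gene. Capitals mark matches to an ETS core (CCGGAA) or a short SMAD site (CAGACA), the known sites of factors downstream of ERK and of the TGF-beta receptor.
Sema3d, chr5:12382916-12383165, plus strand: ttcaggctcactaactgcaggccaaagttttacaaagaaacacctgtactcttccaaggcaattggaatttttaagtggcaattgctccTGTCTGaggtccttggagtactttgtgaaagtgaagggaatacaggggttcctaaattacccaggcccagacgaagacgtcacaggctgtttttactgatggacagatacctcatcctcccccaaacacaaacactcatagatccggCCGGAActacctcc
Sema4f, chr6:82939770-82940019, minus strand: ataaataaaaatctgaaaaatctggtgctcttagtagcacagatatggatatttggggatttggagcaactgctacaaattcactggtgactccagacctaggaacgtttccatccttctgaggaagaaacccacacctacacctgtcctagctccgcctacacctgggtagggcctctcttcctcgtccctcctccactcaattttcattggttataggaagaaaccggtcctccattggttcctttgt
Nrp1, chr8:128358823-128359072, plus strand: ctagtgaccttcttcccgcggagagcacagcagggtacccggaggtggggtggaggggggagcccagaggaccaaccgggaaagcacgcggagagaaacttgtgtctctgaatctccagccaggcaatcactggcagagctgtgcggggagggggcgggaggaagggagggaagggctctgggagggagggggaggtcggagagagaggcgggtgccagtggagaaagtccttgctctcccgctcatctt
Both strands were searched, and Sema3d held 1 match to each of these motifs while Sema4f and Nrp1 held none. None of the 3 held an AP-1 site (TGANTCA) or the palindromic SMAD site (GTCTAGAC). Of all 32851 RefSeq windows of 250 bases before a start, 12% held the ETS core, 17.1% the short SMAD site, 6.75% the AP-1 site and 0.167% the SMAD palindrome. Of the 61 windows of the members, 6, 11, 3 and 0 held them. The AP-1 matches were in Sema4c, Sema4d and Sema6b. Promoters were found for 47 of the 53 members, and not for Efnb3, Plxna1, Plxna4, Sema3b, Sema3f and Sema6a. A match describes the letters of this window and is not evidence of a bound site.

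Among the secreted semaphorins, Sema3d was at 0.261 and 0.274 CPM in Ras-induced knockdown and 0.386 and 0.549 CPM in Ras-induced NS cells. Its level under DMSO was 0.84 and 0.808 CPM in knockdown cells and 10.4 and 9.84 CPM in NS cells, so only NS cells under DMSO had an appreciable level. Its log2 change with the knockdown was -0.76 ± 0.59 (adjusted p = 0.287) with Ras induced and -3.58 ± 0.23 (adjusted p = 1.56e-13) under DMSO. Sema3c, the most abundant semaphorin, was at 511 and 524 CPM in Ras-induced knockdown and 332 and 323 CPM in Ras-induced NS cells. It was at 482 and 496 CPM in knockdown and 544 and 563 CPM in NS cells under DMSO. Sema3c was thus higher with the knockdown with Ras induced (0.66 ± 0.03, adjusted p = 2.25e-15) and lower under DMSO (-0.18 ± 0.03, adjusted p = 4.29e-05). Sema3f showed the same reversal, with 0.38 ± 0.05 and -0.22 ± 0.05. Sema3e, whose protein can bind Plxnd1 without a neuropilin, was higher with the knockdown under both treatments (0.90 ± 0.08 and 0.71 ± 0.07), and Plxnd1 itself was higher too (1.14 ± 0.29 and 1.56 ± 0.34) at no more than 4.1 CPM in any library. Without Ras-induced NS replicate 2 the Plxnd1 change with Ras induced was 0.77 (adjusted p = 0.053). Sema3a and Sema3b, both below 4 CPM throughout, passed with Ras induced (0.99 ± 0.32 and 1.01 ± 0.29). These calls ended without Ras-induced NS replicate 1 for Sema3a (0.88, adjusted p = 0.0595), without Ras-induced knockdown replicate 1 for Sema3b (0.70, adjusted p = 0.124), and for both with DESeq2 (0.0821 and 0.109).

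Class 4 semaphorins, which span the membrane, were divided. Sema4f was at 2.64 and 2.97 CPM in Ras-induced knockdown and 9.26 and 9.01 CPM in Ras-induced NS cells, and stood at 1.37 and 2.04 CPM in knockdown and 12.5 and 11.2 CPM in NS cells under DMSO. It fell with the knockdown whether Ras was induced (-1.72 ± 0.18, adjusted p = 3.59e-09) or not (-2.78 ± 0.19, adjusted p = 5.11e-13). Sema4d, a ligand of Plxnb1, also fell (-0.88 ± 0.08 and -0.85 ± 0.08). Sema4b, the most abundant of the class, was at 76.8 and 81.7 CPM in Ras-induced knockdown and 43.5 and 42.1 CPM in Ras-induced NS cells. Its level under DMSO was 68.5 and 69 CPM in knockdown and 46.6 and 41.1 CPM in NS cells. It rose under both treatments (0.89 ± 0.06, adjusted p = 1.5e-12, and 0.65 ± 0.06, adjusted p = 7.5e-10), as did Sema4a (0.76 ± 0.09 and 0.98 ± 0.09). Sema4b made up 51.6% to 53.5% of the class per length in knockdown libraries and 34.9% to 40.8% in NS libraries. Sema4c, a ligand of Plxnb2, did not pass with Ras induced (0.14 ± 0.10, adjusted p = 0.223) and passed under DMSO (0.38 ± 0.12, adjusted p = 0.00651, and 0.0883 by DESeq2). The difference between these did not pass (-0.24 ± 0.16, adjusted p = 0.243). Sema4g, at most 0.888 CPM in any library, did not pass, except with Ras induced when Ras-induced knockdown replicate 2 was left out (-2.59, adjusted p = 0.0123).

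Of the remaining semaphorins, Sema5a was at 6.06 and 7.5 CPM in Ras-induced knockdown and 13.2 and 9.89 CPM in Ras-induced NS cells, and stood at 7.37 and 7.91 CPM in knockdown and 14.1 and 13.7 CPM in NS cells under DMSO. It fell with the knockdown under both treatments (-0.77 ± 0.15, adjusted p = 6.44e-05, and -0.88 ± 0.14, adjusted p = 3.74e-06). Sema6a, a ligand of plexins of the A group, did not pass under either, with 13.7 and 13.4 CPM in Ras-induced knockdown and 15.5 and 15.5 CPM in Ras-induced NS cells and 11.2 and 10.6 CPM in knockdown and 13.8 and 10.9 CPM in NS cells under DMSO. It passed under DMSO without NS DMSO replicate 2 (-0.34, adjusted p = 0.0362). Sema6b had 43.5 counts over the Ras-induced knockdown libraries and none over the NS libraries, so its level was at least 13.7-fold higher, taking 3 counts over the group as the floor. Under DMSO it had 20 counts in knockdown and 2.5 counts in NS cells, which is 8.83 times as many (95% interval 2.68 to 97.4, from counting alone). This gene passed the filter through the groups where it is high. Sema6c, singled out after its values were seen because its direction reversed, was at 3.22 and 3.59 CPM in Ras-induced knockdown and 1.08 and 2.56 CPM in Ras-induced NS cells. Its level under DMSO was 1.95 and 1.48 CPM in knockdown and 3.67 and 2.7 CPM in NS cells. Its log2 changes were 0.89 ± 0.29 (adjusted p = 0.0118) with Ras induced and -0.90 ± 0.30 (adjusted p = 0.0115) under DMSO. The value with Ras induced was 0.41 (adjusted p = 0.245) without Ras-induced NS replicate 1 and 1.66 without replicate 2, and it did not pass without Ras-induced knockdown replicate 2 (0.0627) or by DESeq2 (0.0938). The call under DMSO ended without NS DMSO replicate 1 (0.163), without knockdown DMSO replicate 2 (0.126) and with DESeq2 (0.109).

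The plexins had 5 higher and 1 lower of 6 tested genes with Ras induced and 3 higher and 2 lower under DMSO. Plxnb2 was at 1053 and 1068 CPM in Ras-induced knockdown and 778 and 766 CPM in Ras-induced NS cells, and stood at 949 and 941 CPM in knockdown and 785 and 759 CPM in NS cells under DMSO. It rose by 0.46 ± 0.03 with Ras induced (adjusted p = 3.2e-13) and by 0.29 ± 0.03 under DMSO (adjusted p = 2.8e-09). Plxna1 fell under both treatments (-0.48 ± 0.05, adjusted p = 7.69e-06, and -0.81 ± 0.05, adjusted p = 5.57e-08), so that Plxnb2 held 74.9% to 75.6% of plexin RPKM in Ras-induced knockdown and 64.8% to 66.4% in Ras-induced NS cells. Under DMSO its share was 70.0% to 70.5% in knockdown and 55.8% to 56.8% in NS cells. Plxna2, a receptor of class 6 semaphorins, was at 58.6 and 66 CPM in Ras-induced knockdown and 37.2 and 33.4 CPM in Ras-induced NS cells and stood at 68.3 and 66.2 CPM in knockdown and 88.1 and 74.1 CPM in NS cells under DMSO. Its log2 change with the knockdown was 0.82 ± 0.09 (adjusted p = 5.21e-06) with Ras induced. Under DMSO the change was -0.28 ± 0.08 (adjusted p = 0.00905), a call that ended without NS DMSO replicate 1 (-0.13, adjusted p = 0.148) and without either knockdown DMSO replicate (0.07 and 0.11). Plxna3 was at 13.5 and 10.1 CPM in Ras-induced knockdown and 5.83 and 5.71 CPM in Ras-induced NS cells, and stood at 18.4 and 15.5 CPM in knockdown and 15.3 and 17.2 CPM in NS cells under DMSO. Between Ras-induced groups it was higher in knockdown cells (1.04 ± 0.16, adjusted p = 2.61e-06), and under DMSO its libraries overlapped (0.06 ± 0.12, adjusted p = 0.651). Plxnb1 rose under both (0.47 ± 0.05 and 0.22 ± 0.05).

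All 4 tested EphA receptors were higher in knockdown cells under both treatments. Epha1 was at 117 and 112 CPM in Ras-induced knockdown and 58.9 and 58.1 CPM in Ras-induced NS cells. Its level under DMSO was 137 and 128 CPM in knockdown and 64.9 and 63.6 CPM in NS cells, and no knockdown library overlapped an NS library. Its log2 change was 0.97 ± 0.05 with Ras induced (adjusted p = 3.54e-15) and 1.04 ± 0.05 under DMSO (adjusted p = 2.44e-16). Epha2, an epithelial receptor that binds Efna1, was at 251 and 248 CPM in Ras-induced knockdown and 211 and 223 CPM in Ras-induced NS cells, and stood at 175 and 197 CPM in knockdown and 112 and 119 CPM in NS cells under DMSO. It rose by 0.20 ± 0.05 with Ras induced (adjusted p = 0.000979) and by 0.69 ± 0.05 under DMSO (adjusted p = 1.63e-10). Epha4, which binds ephrins of both groups, rose by 0.62 ± 0.05 and 0.34 ± 0.04. Epha7 rose by 0.22 ± 0.07 with Ras induced (adjusted p = 0.0088) and by 0.84 ± 0.08 under DMSO (adjusted p = 1.95e-10). The change with Ras induced was 0.13 (adjusted p = 0.166) without Ras-induced NS replicate 2, and it did not pass without Ras-induced knockdown replicate 1 (0.0662) or by DESeq2 (0.102). Summed per length, EphA receptors were at 125 ± 1.34 RPKM in Ras-induced knockdown and 92 ± 1.16 RPKM in Ras-induced NS cells and stood at 117 ± 3.12 RPKM in knockdown and 70.9 ± 0.840 RPKM in NS cells under DMSO.

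Among EphB receptors, Ephb4 was at 455 and 451 CPM in Ras-induced knockdown and 309 and 319 CPM in Ras-induced NS cells, and stood at 321 and 302 CPM in knockdown and 244 and 249 CPM in NS cells under DMSO. It rose under both (0.53 ± 0.04, adjusted p = 5.78e-13, and 0.34 ± 0.04, adjusted p = 7.15e-09). Ephb3 was at -0.08 ± 0.04 (adjusted p = 0.10) with Ras induced, where it passed with upper-quartile scaling (-0.11, adjusted p = 0.0284), and fell under DMSO (-0.67 ± 0.04, adjusted p = 1.49e-13). Ephb6, a receptor without kinase activity, rose with Ras induced (0.72 ± 0.06, adjusted p = 8.46e-11) and was at -0.05 ± 0.06 (adjusted p = 0.412) under DMSO.

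Of the 8 ephrins, 3 were higher and 1 lower with the knockdown when Ras was induced, and 0 were higher and 5 lower under DMSO. Efnb2, the most abundant per length under DMSO, was at 219 and 225 CPM in Ras-induced knockdown and 200.1 and 181 CPM in Ras-induced NS cells, and stood at 260.2 and 244 CPM in knockdown and 346 and 325 CPM in NS cells under DMSO. Its log2 change was 0.22 ± 0.05 (adjusted p = 0.000463) with Ras induced and -0.41 ± 0.04 (adjusted p = 8.91e-08) under DMSO. Efnb1 fell slightly under both (-0.16 ± 0.04 and -0.18 ± 0.04). Efna5 passed under neither treatment. It was at 119 and 130.3 CPM in Ras-induced knockdown and 126 and 123 CPM in Ras-induced NS cells, and stood at 109.7 and 119.7 CPM in knockdown and 111 and 104 CPM in NS cells under DMSO. It passed under DMSO without knockdown DMSO replicate 1 (0.17, adjusted p = 0.0201). Efna1, Efna3 and Efna4 lie next to each other on chromosome 3. With Ras induced Efna3 rose (0.83 ± 0.12) and Efna4 was at -0.04 ± 0.10 (adjusted p = 0.759). Efna1 was at 0.26 ± 0.08 (adjusted p = 0.00766), a call that ended without Ras-induced NS replicate 1 (0.108), without Ras-induced knockdown replicate 2 (0.0584) and with DESeq2 (0.061). Under DMSO Efna1 and Efna4 fell (-0.42 ± 0.07 and -0.64 ± 0.10) and Efna3 was at 0.03 ± 0.10 (adjusted p = 0.789). Efna2, at most 1.56 CPM in any library, had -1.58 ± 0.46 under DMSO (adjusted p = 0.00462), which did not pass without NS DMSO replicate 2 (0.0536), without knockdown DMSO replicate 2 (0.0949) or by DESeq2 (0.0843). It passed the filter on low counts through NS libraries, above all those under DMSO, where its counts were highest. Efnb3, at most 1.94 CPM, passed under neither.

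**Figure D2:**
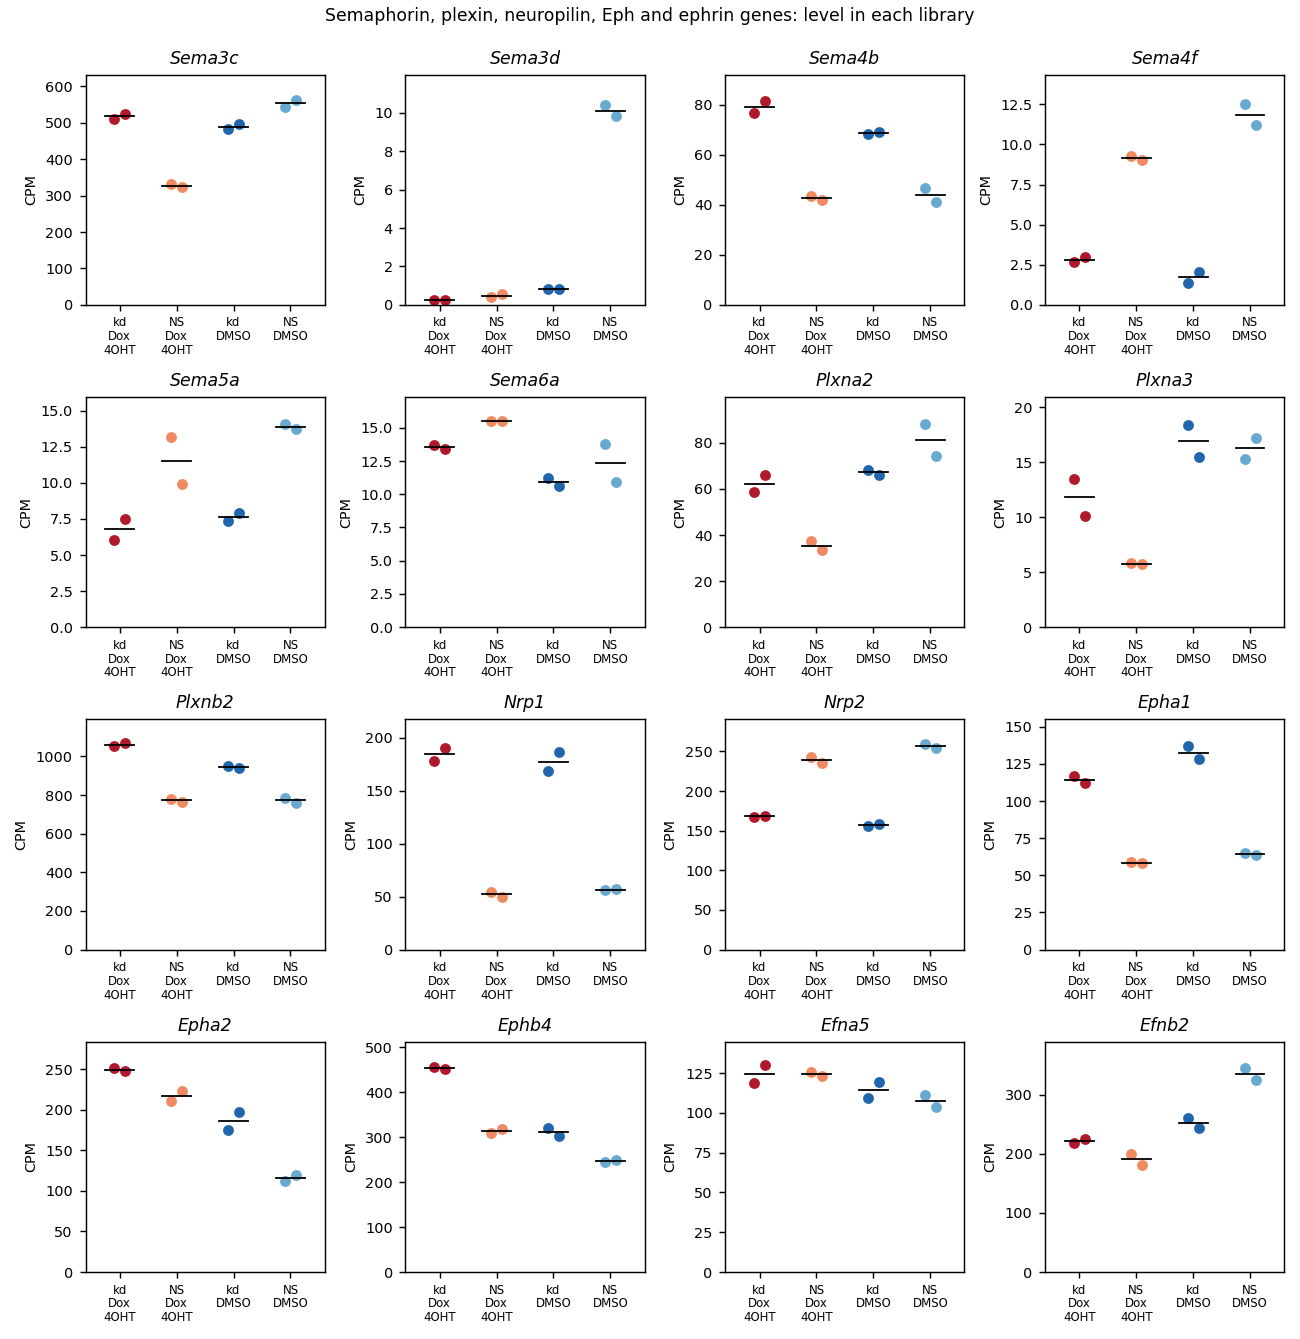
Level in each library (CPM, vertical axis from 0, a separate scale for each gene) of 16 members named by size of change or by abundance within their family, with points for libraries and bars for the mean of 2. Nrp1 and Epha1 are high in all 4 knockdown libraries, Nrp2 and Sema4f in all 4 NS libraries, and Sema3d in NS cells under DMSO alone.

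The Ras response, Dox and 4OHT over DMSO, was taken in knockdown and in NS cells separately, from 4 libraries each with none shared. In knockdown cells 11 of these genes rose and 9 fell. Thus 20 of 39 members passed, where 36.1% of all genes passed, 19.5% higher and 16.6% lower, and the median log2 change was 0.08, against 0.00 for all genes. By DESeq2 14 of 37 members passed, 6 higher and 8 lower, where 2481 of 12359 genes passed, 1491 higher and 990 lower. Only 2 members passed with at least a 2-fold change, Sema3b (1.44 ± 0.31, adjusted p = 0.000573) and Sema3d (-1.54 ± 0.51, adjusted p = 0.0198), both under 4 CPM in these libraries, against 2.67% of all genes. The Sema3d call ended when any knockdown library (of 4) was left out (0.0575 to 0.121) and by DESeq2 (0.0877). Members that rose were Ephb4 (0.54 ± 0.04, adjusted p = 2.28e-12), Epha2 (0.42 ± 0.05, adjusted p = 4.69e-07), Sema4c (0.50 ± 0.11), Sema3f (0.21 ± 0.05) and Plxnb2 (0.17 ± 0.03). Members that fell were Sema3e (-0.55 ± 0.07, adjusted p = 2.95e-07), Plxnb1 (-0.25 ± 0.05), Epha4 (-0.22 ± 0.04), Epha1 (-0.20 ± 0.05), Efnb1 (-0.20 ± 0.04) and Efnb2 (-0.19 ± 0.05). Plxna3 was at -0.51 ± 0.12 (adjusted p = 0.00213), or -0.33 (adjusted p = 0.0676) without Ras-induced knockdown replicate 2. Plxna1 was at -0.18 ± 0.05 (adjusted p = 0.0193), which did not pass without either knockdown DMSO library (0.13 and 0.0889) or without Ras-induced knockdown replicate 1 (0.109).

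The other calls in knockdown cells were less stable. Sema4f was at 0.69 ± 0.26 (adjusted p = 0.0394), or 0.43 (adjusted p = 0.30) without knockdown DMSO replicate 1, and did not pass without either Ras-induced knockdown library (0.0703 and 0.165), with only the 4 libraries compared (0.0566) or by DESeq2 (0.146). Sema6c was at 0.98 ± 0.30 (adjusted p = 0.0114), which did not pass without knockdown DMSO replicate 2 (0.133), without Ras-induced knockdown replicate 2 (0.0681) or by DESeq2 (0.111). Sema6a (0.32 ± 0.12, adjusted p = 0.0374) lost its call when any knockdown library (of 4) was left out (0.0746 to 0.195) and by DESeq2 (0.244), and Sema4b (0.20 ± 0.06, adjusted p = 0.00642) without Ras-induced knockdown replicate 2 (0.0936) and by DESeq2 (0.0907). Efna4 was at 0.26 ± 0.10 (adjusted p = 0.0468) and passed in few of the alternatives. It was at 0.15 (adjusted p = 0.418) without knockdown DMSO replicate 2, and also lost its call without either Ras-induced knockdown library (0.107 and 0.157), without either NS DMSO library (0.0579 and 0.0571), by DESeq2 (0.257), with upper-quartile scaling (0.0671), with the filter on mean CPM (0.0506) and with only the 4 libraries compared (0.056). Nrp1 (0.06 ± 0.05, adjusted p = 0.368) and Sema3c (0.08 ± 0.03, adjusted p = 0.0576) did not pass. Nrp2 did not either (0.09 ± 0.04, adjusted p = 0.0641). With the size factors of DESeq2 in edgeR, Sema3c (0.09, adjusted p = 0.0385) and Nrp2 (0.10, adjusted p = 0.0455) passed. Ephb3 was at -0.10 ± 0.04 (adjusted p = 0.0683) and passed in 6 alternatives (lowest adjusted p = 0.0275). Sema3a (-0.60 ± 0.25, adjusted p = 0.0576) passed in 3 (lowest 0.0469), Efna5 (0.11 ± 0.05, adjusted p = 0.0879) without knockdown DMSO replicate 2 (0.0333) or Ras-induced knockdown replicate 1 (0.0255), and Sema6b (adjusted p = 0.0562) in 2 (lowest 0.0349).

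In NS cells, where Tgfbr1 was not silenced, most members that changed fell: 29 of 39 passed, 8 higher and 21 lower, where 42.1% of all genes passed, 20.8% higher and 21.3% lower. The median log2 change was -0.34 for the tested members and 0.00 for all genes. At least 2-fold changes with an adjusted p under 0.05 were found in 5 members, and in 4.24% of all genes. Sema3d fell most, with a log2 change of -4.35 ± 0.26 (adjusted p = 1.09e-13), which rests on the same 2 NS libraries under DMSO as its fall with the knockdown. Sema3c fell to a mean of 327 CPM, against 553 CPM under DMSO (-0.76 ± 0.03, adjusted p = 3.23e-16), and Sema3e (-0.74 ± 0.08), Sema3f (-0.39 ± 0.05) and Sema3a (-1.2 ± 0.30) fell as well. The Sema3a call ended without NS DMSO replicate 1 (-0.96, adjusted p = 0.0592). Summed per length, class 3 semaphorins were at 98.3 ± 1.47 RPKM with Ras induced and 156 ± 1.33 RPKM under DMSO in NS cells.

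Of the plexins, 4 fell and none rose in NS cells. Plxna3 and Plxna2 fell most (-1.48 ± 0.15, adjusted p = 5.15e-09, and -1.21 ± 0.09, adjusted p = 1.42e-07), followed by Plxna1 (-0.51 ± 0.05) and Plxnb1 (-0.50 ± 0.05). Plxnb2 did not pass (0.00 ± 0.03, adjusted p = 0.976). The neuropilins moved little: Nrp1 did not pass (-0.12 ± 0.06, adjusted p = 0.15) and Nrp2 was at -0.10 ± 0.04 (adjusted p = 0.0229). The Nrp2 call ended without NS DMSO replicate 1 (0.171), NS DMSO replicate 2 (0.0595) or Ras-induced NS replicate 2 (0.147), and with DESeq2 (0.158). Epha2 and Epha7, in contrast, rose (0.91 ± 0.05, adjusted p = 3.83e-12, and 0.70 ± 0.08, adjusted p = 2.32e-08), as did Ephb4 (0.35 ± 0.04, adjusted p = 1.02e-08). Epha4, Ephb3 and Ephb6 fell (-0.50 ± 0.05, -0.69 ± 0.04 and -0.78 ± 0.06). Epha1 was at -0.14 ± 0.05 (adjusted p = 0.0473), a call that ended without each of the 4 NS libraries (0.0879 to 0.211) and by DESeq2 (0.244). It also ended without either Ras-induced knockdown library (0.0554 and 0.0553), with only the 4 libraries compared (0.0539) and with the other 2 filters (0.0577 and 0.0514).

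Among the ephrins in NS cells, 5 fell and 1 rose with Ras. Efnb2 was at -0.82 ± 0.05 (adjusted p = 7.51e-12), and Efna1 and Efna3, neighbours on chromosome 3, were at -0.71 ± 0.08 and -0.80 ± 0.12. Efnb1 fell by 0.22 ± 0.04. Efna4 was at -0.34 ± 0.09 (adjusted p = 0.0046), which did not pass without NS DMSO replicate 1 (0.0699), without Ras-induced NS replicate 1 (0.0785) or by DESeq2 (0.0941). Efna5 was at 0.21 ± 0.05 (adjusted p = 0.00223, and 0.0535 without NS DMSO replicate 2). Of the class 4 semaphorins Sema4c rose (0.74 ± 0.11, adjusted p = 5.2e-06). Sema4d was at 0.22 ± 0.07 (adjusted p = 0.00972), a call that ended without NS DMSO replicate 1 (0.103), without Ras-induced NS replicate 1 (0.0795) and with DESeq2 (0.179). Sema4f was at -0.38 ± 0.13 (adjusted p = 0.0194). This call ended without NS DMSO replicate 1 (0.21), or without either of the Ras-induced NS libraries (0.0604 and 0.0942), and with DESeq2 (0.298). Sema4a (0.21 ± 0.10), Sema4b (-0.04 ± 0.07), Sema3b (0.48 ± 0.36), Plxnd1 (0.83 ± 0.39), Efna2 (-0.68 ± 0.40) and Efnb3 (0.69 ± 0.32) did not pass, nor did Sema5a (-0.28 ± 0.13) or Sema6b. Plxnd1 passed without Ras-induced NS replicate 2 (1.21, adjusted p = 0.0302) and Sema5a without Ras-induced NS replicate 1 (-0.50, adjusted p = 0.0108). The low-level genes Sema4g (1.79 ± 0.64, adjusted p = 0.0246) and Sema6c (-0.80 ± 0.29, adjusted p = 0.0314) and Sema6a (0.32 ± 0.11, adjusted p = 0.0255) passed, none of them by DESeq2 (0.218, 0.207 and 0.219). The Sema4g call ended without any one of the 4 NS libraries (0.0523 to 0.162). This gene passed the filter on low counts through the Ras-induced libraries where its counts were highest. Sema6a was at 0.17 (adjusted p = 0.333) when NS DMSO replicate 2 was left out and 0.51 without the other, and its call ended without either Ras-induced NS library (0.0769 and 0.0879). Sema6c was at -0.32 (adjusted p = 0.432) without Ras-induced NS replicate 1, -1.56 without Ras-induced NS replicate 2 and -0.55 (adjusted p = 0.291) without NS DMSO replicate 1.

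**Figure D3:**
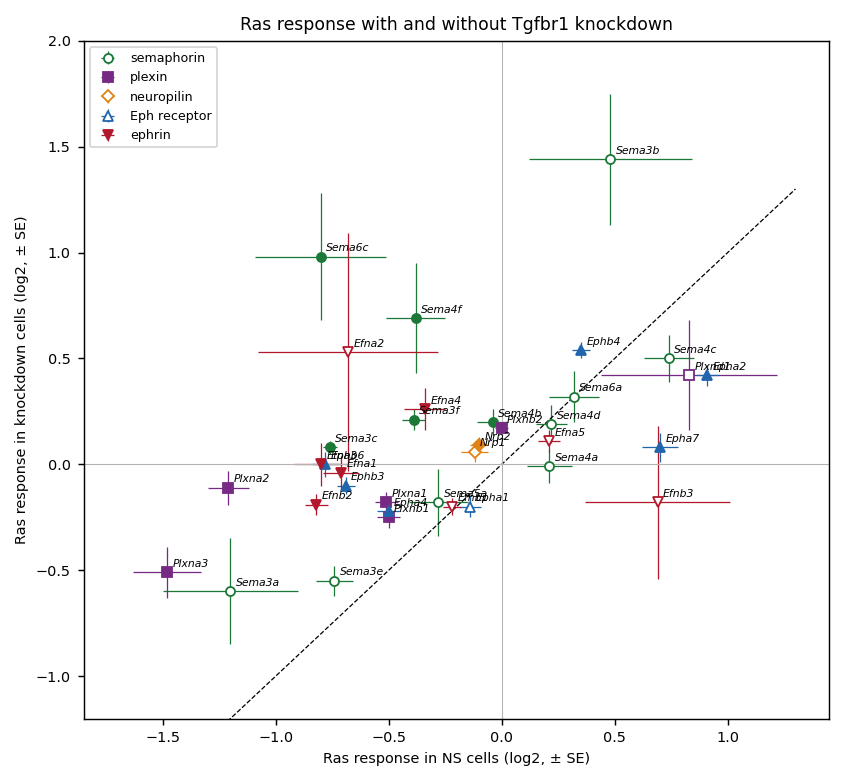
Ras response (log2 change, Dox and 4OHT over DMSO, ± SE) of tested members in knockdown cells (vertical axis) and in NS cells (horizontal axis), with the dashed line where both are equal, filled symbols where the difference passed the test, and Sema3d, Sema4g and Sema6b left out for their range. Plxna2, Plxna3, Efnb2, Efna1, Efna3, Sema3c, Ephb3 and Ephb6 lie above the line, with a fall in NS cells, and Epha2 and Epha7 lie below it.

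The interaction tested whether the Ras response differed between knockdown and NS cells. The difference (response in knockdown minus response in NS cells) was above 0 in 29 of 39 members. It passed in 22, of which 20 were positive and 2 negative, where 38.2% of all genes passed, 20.2% positive and 18.0% negative. The median difference was 0.25 for the tested members and 0.02 for all genes. The difference was at least 2-fold and past the test in 4 members, against 4.28% of all genes. By DESeq2 20 of 36 members passed, 18 positive and 2 negative, where 2681 of 11701 genes passed, 1532 positive and 1149 negative. Leaving out each library in turn gave 20 to 22 members by edgeR.

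The Ras response passed in knockdown cells and not in NS cells for 3 members and the other way round for 12, and for 4 the directions were opposite (Sema3f, Sema4f, Sema6c and Efna4). Of these 4, only Sema3f kept both calls under every alternative, and the others lost calls in both cell types, as given above. Such pairs of calls were not counted over all genes, so they have no background to be read against. A call in a single cell type is also not a difference between the responses. By the interaction test Sema3a (adjusted p = 0.25), Sema3b (0.126), Sema4d (0.85), Sema4g (0.342) and Efna5 (0.343), each called in a single cell type, did not pass. Among the members that passed, the difference itself was largest for Sema3d (2.81 ± 0.74, adjusted p = 0.0033), which was already low in knockdown cells under DMSO. Sema3c had 0.84 ± 0.05 (adjusted p = 2.17e-13) and Sema3f 0.60 ± 0.07 (adjusted p = 3.57e-08). Of the plexins, 5 of 6 had a positive difference past the test: Plxna2 (1.09 ± 0.12, adjusted p = 1.28e-05), Plxna3 (0.98 ± 0.20, adjusted p = 0.000274), Plxna1 (0.32 ± 0.07), Plxnb1 (0.25 ± 0.07) and Plxnb2 (0.17 ± 0.04). The Plxnb1 call ended without NS DMSO replicate 1 (0.21, adjusted p = 0.0604) and by DESeq2 (0.0908). All 3 tested EphB receptors had positive differences, Ephb6 (0.78 ± 0.08, adjusted p = 3.38e-08), Ephb3 (0.58 ± 0.06, adjusted p = 2.22e-08) and Ephb4 (0.19 ± 0.05, adjusted p = 0.00328). The neighbouring ephrins Efna1, Efna3 and Efna4 had 0.68 ± 0.11, 0.80 ± 0.16 and 0.60 ± 0.14, and Efnb2 had 0.63 ± 0.06 (adjusted p = 1.78e-07).

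The 2 negative differences were those of Epha2 (-0.49 ± 0.07, adjusted p = 9.78e-06) and Epha7 (-0.62 ± 0.10, adjusted p = 2.12e-05). Both rose with Ras in NS cells and stood higher in knockdown than in NS cells under DMSO. These 2 comparisons and the interaction use the same 2 NS libraries under DMSO, so they are not separate observations. Epha4 had a positive difference (0.28 ± 0.06) and Epha1 did not pass (-0.07 ± 0.07, adjusted p = 0.48). Nrp2 had 0.20 ± 0.05 (adjusted p = 0.00442), and Nrp1 0.17 ± 0.08 (adjusted p = 0.0877), which passed without knockdown DMSO replicate 2 (0.25, adjusted p = 0.0204). Sema6c (1.79 ± 0.42, adjusted p = 0.00146), Sema4f (1.07 ± 0.29, adjusted p = 0.00449) and Sema4b (0.24 ± 0.09, adjusted p = 0.0338) passed too. The Sema4f difference was 0.81 (adjusted p = 0.0508) without knockdown DMSO replicate 1. That of Sema4b was 0.13 (adjusted p = 0.336) without NS DMSO replicate 1, did not pass without 5 other single libraries (0.0578 to 0.132, without either knockdown DMSO library, either Ras-induced NS library or Ras-induced knockdown replicate 2) and did not pass by DESeq2 (0.193).

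**Figure D4:**
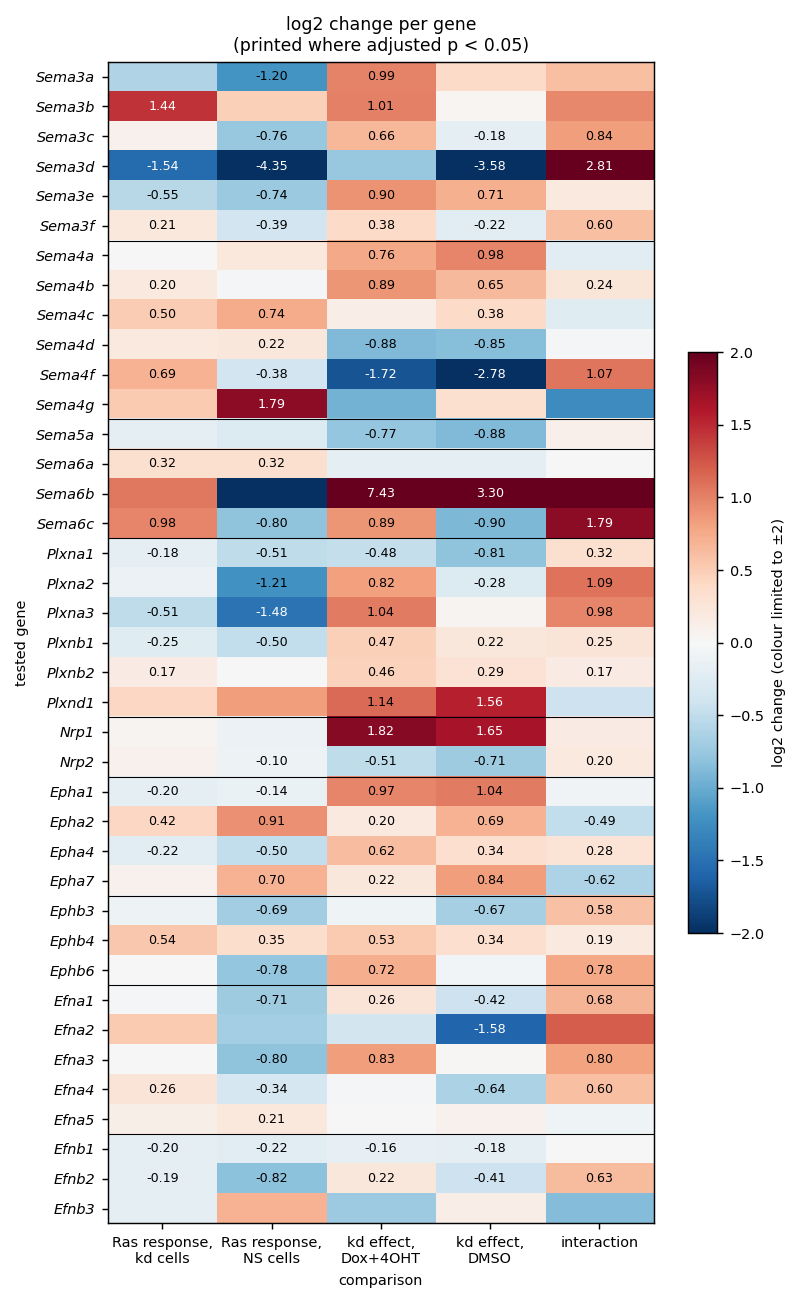
Log2 change (colour, limited to ±2) of the 39 tested members, in rows by family, for the 2 Ras responses, the 2 knockdown effects (kd) and their interaction, in columns, with the value printed where the adjusted p was under 0.05. The columns run from knockdown to NS cells and from Dox and 4OHT to DMSO, and in the interaction column 20 of the 22 printed values are positive, and the fitted values of Sema6b rest on groups with almost no counts and are no estimate of its fold.

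Other genes of these pathways were read from 2 lists of partners and effectors, chosen by role, with 36 semaphorin and plexin partners, of which 31 were tested, and 27 Eph and ephrin partners, of which 23 were tested. With the knockdown, 17 semaphorin partners were higher and 10 lower with Ras induced, and 12 were higher and 12 lower under DMSO, with medians of 0.22 and -0.01. Thus 87.1% and 77.4% of these partners passed, where 60.2% and 61.9% of all genes did (30.5% higher and 29.7% lower with Ras induced, 30.9% and 31.0% under DMSO), with medians over all genes of -0.01 and 0.00. L1cam, an adhesion molecule that acts with Nrp1 in neurons, was at 17.5 and 17.9 CPM in Ras-induced knockdown and 4.25 and 3.88 CPM in Ras-induced NS cells and rose under both treatments (2.12 ± 0.13 and 1.61 ± 0.14). Rnd1, whose protein binds plexins, and its relative Rnd2 rose under both (1.4 ± 0.13 and 1.19 ± 0.14 for Rnd1, 1.33 ± 0.11 and 1.29 ± 0.12 for Rnd2). Itga1, an integrin subunit, fell with the knockdown under DMSO (-2.30 ± 0.17), where it was at 2.18 and 3.34 CPM in knockdown and 13.9 and 13.5 CPM in NS cells. Met, a receptor tyrosine kinase that associates with plexins of the B group, was at 491 and 506 CPM in Ras-induced knockdown and 429 and 393 CPM in Ras-induced NS cells, and rose slightly (0.28 ± 0.04 and 0.18 ± 0.04 under DMSO). Eph and ephrin partners counted 11 higher and 6 lower under either treatment, which is 73.9% of those tested, against the same 60.2% and 61.9% of all genes. The guanine nucleotide exchange factor genes Kalrn and Ngef fell (-1.87 ± 0.12 and -0.70 ± 0.17 with Ras induced, -1.95 ± 0.14 and -1.53 ± 0.17 under DMSO). The ephrin-B adaptor gene Grip1 fell too (-1.39 ± 0.12 and -1.74 ± 0.13), whereas Vav3, an exchange factor, rose (1.01 ± 0.07 and 1.5 ± 0.07).

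With Ras in knockdown cells, 13 semaphorin partners rose and 3 fell, and 11 Eph partners rose and 0 fell. These are 51.6% and 47.8% of the 2 lists, where 36.1% of all genes passed, 19.5% higher and 16.6% lower. DESeq2 called 15 of the partners against 27 by edgeR, and 2481 of 12359 genes. In NS cells 10 semaphorin partners rose and 11 fell, and 8 Eph partners rose and 7 fell. These are 67.7% and 65.2% of the lists, where 42.1% of all genes passed, 20.8% higher and 21.3% lower. DESeq2 called 19 partners against 36 by edgeR, and 3106 of 13016 genes. Flt1, a VEGF receptor that can pair with neuropilins, rose with Ras in knockdown (0.77 ± 0.05) and in NS cells (0.83 ± 0.05). Chl1, an adhesion molecule related to L1cam, fell in both (-0.57 ± 0.05 in knockdown and -1.09 ± 0.05 in NS cells), and Itga1 fell in NS cells (-1.82 ± 0.16). The regulator gene Rgs3, whose protein can bind ephrin-B, fell in NS cells (-1 ± 0.10), and Vav3 rose (0.78 ± 0.08) while Chn2 fell (-0.67 ± 0.18). In knockdown cells Pak1, a kinase that acts on the cytoskeleton, rose (0.64 ± 0.04), as did Inppl1, a phosphatase that binds Epha2 (0.54 ± 0.04), Kalrn (0.56 ± 0.17) and Grip1 (0.43 ± 0.16).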

How the data were processed

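Messenger RNA was measured in 8 libraries, 2 in each of 4 groups, from TruSeq kits, per the labels, with Illumina sequencing. Estimated counts per gene (multiples of 0.5, not normalized) were deposited by the authors in 1 table with a gene length, made by TopHat alignment and HOMER counting on mm9, with DESeq2 also named, per the submitters' processing notes. The sources used here give no versions, strand setting or handling of shared reads, so reads of overlapping or antisense genes cannot be told apart. The members and lists were chosen with earlier results of these data known. Whole counts had been assumed in the design; the values proved to be expected counts, so rounding to whole numbers preceded the tests, and 2 entries with a repeated symbol were dropped.

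The filter filterByExpr kept 12538 of 24907 symbols. edgeR 4.0.16 in R 4.3.3 fitted all 8 libraries with a mean per group and TMM factors (4 residual degrees of freedom). Its quasi-likelihood F test gave two-sided p-values, adjusted by Benjamini-Hochberg over all genes tested, with calls at 0.05. Standard errors were the log2 change divided by the root of F. The test was checked on simulated data. CPM and RPKM used the unrounded counts, TMM-scaled library sizes and the deposited lengths. The labels do not name separate cultures for libraries of 1 group, so p-values reflect spread between libraries that may be purely technical. Within each group the replicates differed beyond sampling noise (chi-square per degree of freedom 2.33 to 13). The highest values, 13 in Ras-induced NS and 8.11 in knockdown DMSO libraries, include the ribosomal RNA gene Rn45s. It took 0.916% and 2.76% of counts in the former and 0.388% and 1.36% in the latter, and no value was computed without it. Only counting error enters the intervals and the floor of 3 counts. Values in every library are given for members that passed with an absolute log2 change of at least 1 and a mean of at least 5 CPM, and for the most abundant member of each family. Up to 3 partners are named per list and comparison, and Met. Alternatives were DESeq2 1.42.0, other scaling factors, other filters, a fit of only the 4 libraries compared, a replicate block and leaving out each library. Promoter sequences and gene neighbours are from RefSeq (GRCm38.p6), which is not the build of the counts.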

Additional observations from a re-analysis of the deposited data

Results flagged for a closer look

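The Ras response differed between knockdown and NS cells in 22 members, by edgeR's interaction test with an adjusted p under 0.05 over all genes tested. As log2 differences (response in knockdown minus response in NS cells), the semaphorins had 0.84 for Sema3c, 2.81 for Sema3d, 0.60 for Sema3f, 0.24 for Sema4b, 1.07 for Sema4f, 1.79 for Sema6c. Plexins and neuropilins had 0.20 for Nrp2, 0.32 for Plxna1, 1.09 for Plxna2, 0.98 for Plxna3, 0.25 for Plxnb1, 0.17 for Plxnb2. Eph receptors had -0.49 for Epha2, 0.28 for Epha4, -0.62 for Epha7, 0.58 for Ephb3, 0.19 for Ephb4, 0.78 for Ephb6, and ephrins had 0.68 for Efna1, 0.80 for Efna3, 0.60 for Efna4, 0.63 for Efnb2. Among all genes tested 38.2% passed this test, 20.2% with a positive and 18.0% with a negative difference.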

How the results depend on the processing

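The count of members called stayed within 1.5 times its value as reported in all 5 comparisons under every alternative run. Leaving out each library in turn gave 14 to 21 members for the Ras response in knockdown cells, 21 to 29 in NS cells, 27 to 30 for the knockdown effect with Dox and 4OHT and 27 to 30 in DMSO, and 20 to 22 for the interaction. For all genes these ranges were 3306 to 4670, 3888 to 5329, 6585 to 7608, 6650 to 7904 and 3918 to 4533, and for partners 19 to 28, 24 to 37, 37 to 45 and 35 to 40 (not counted for the interaction). DESeq2 called fewer of all genes, 2481 against 4531 for the Ras response in knockdown cells, 3106 against 5281 in NS cells and 2681 against 4791 for the interaction, and fewer partners in the 2 Ras responses (15 against 27 and 19 against 36), and the cause was not tested. Of 2859 member values under an alternative, 106 lost their call, 22 gained one and none reversed. Calls that held under every alternative in which the gene was tested numbered 12 of 20, 19 of 29, 24 of 30, 26 of 30 and 19 of 22 in the order above. Sema6b is among the 24 and the 26, although some alternatives did not test it. With the replicate block the calls numbered 20, 29, 30, 30 and 22. Deviations of same-numbered libraries had correlations of -0.023 to 0.033 between groups across genes. Genes of low count add counting noise to these values and each group has 2 libraries, so they cannot decide whether same-numbered libraries were paired. Depth limits what can be said of the 14 members left untested, which had at most 28.5 counts over all 8 libraries.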
